A study of Mus musculus with 27 samples.

Results

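Notch signalling genes were followed through 9 groups of sorted Prx1 cells: the 4 mammalian receptors Notch1, Notch2, Notch3 and Notch4, the ligands Jag1, Jag2, Dll1 and Dll4, and the target genes Hes1 and Heyl. The genes were named by symbol, with earlier results of these data known, and make up 10 of the 30153 entries of the expression table. All 10 passed the filter on low values, which kept the 18442 entries that reached 10 in 3 or more libraries.

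The cells came from the femur and tibia of mice that carried Prx1-CreER, in which the Prx1 promoter drives a tamoxifen-inducible Cre, together with the Ai14 tdTomato reporter and a Rag1 mutation that every group shared. Male and female mice of 8 to 12 weeks received tamoxifen, and cells were taken 3 days after the last dose, so that tdTomato marked cells with an active Prx1 promoter at that time and what they had given rise to since. Digestion lasted 60 minutes for muscle and 20 minutes for periosteum, and marrow was flushed out. From each tissue, Prx1+ CD45- cells were sorted into 3 gates with 3 replicates each. P1 cells lacked CD105 and carried CD200, P2 cells lacked both markers, and P3 cells carried CD105 whether or not they had CD200. This gave 27 libraries. All samples came from the same animals, but which animal gave which library is not stated, so p-values measure the spread between libraries, which may in part be technical.

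Notch receptors are single-pass membrane proteins that are activated by Jagged and Delta-like ligands on a neighbouring cell. Binding leads to cleavage of the receptor by an ADAM protease and by γ-secretase, and the freed intracellular domain joins the DNA-binding protein RBPJ to switch on genes such as those of the Hes and Hey families of repressors. In blood vessels Dll4 and Notch4 are known from endothelial cells and Notch3 from the mural cells around them. In muscle the pathway is known for keeping satellite cells quiescent, and in bone for holding back the differentiation of osteoblast precursors.

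The values are normalized counts, and the sum of a library ran from 8631881 to 26230908, with 12396 to 21675 entries above 0. Eng, which encodes the sorting marker CD105, was at 3763 to 7328 in periosteum P3 and at 10.4 to 159.2 in periosteum P1. In muscle it was at 4523 to 6067 in P3 and at 177.7 to 382.4 in P1, without overlap, but the difference was not called (4.19 ± 1.14, adjusted p = 0.119), nor was that of either other gate gene there. Other cell types were visible in the sorted cells. Globin and other erythroid marker genes summed to 45.6% to 48.8% of all normalized counts in bone marrow P2 and 24.7% to 39.7% in periosteum P2, and at most 4.78% in any P1 or P3 library. Myofibre marker genes made up 9.68% to 10.9% of muscle P2. The 7 chondrocyte marker genes summed to 338055 to 799085 in periosteum P2 and to 102886 to 464583 in periosteum P1. Prrx1, the gene whose promoter labelled the cells, was at 1675 to 2413 in bone marrow P1 and at 69 to 170.3 in bone marrow P2. Periosteum P3 replicate 2 had the fewest entries above 0. In such bulk libraries, fewer cells of a type cannot be told apart from less RNA per cell.

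The promoters of Notch4, Dll4, Jag2 and Notch3 are shown first. Notch4, Dll4 and Jag2 were higher in P3 than in P1 as the mean over the 3 tissues. So were Notch1 and Dll1, whose sequences are not shown, while Notch3 was not called in that comparison. In bone marrow alone, the P3 and P1 libraries overlapped for Notch4 and Jag2. Each line gives the 250 bases before the RefSeq start site in GRCm38.p6, 5′ to 3′ on the strand of the gene, in lower case with the ETS-type motif AGGAAG, read on either strand, in capitals.
Notch4 (chr17:34564045-34564294, plus strand): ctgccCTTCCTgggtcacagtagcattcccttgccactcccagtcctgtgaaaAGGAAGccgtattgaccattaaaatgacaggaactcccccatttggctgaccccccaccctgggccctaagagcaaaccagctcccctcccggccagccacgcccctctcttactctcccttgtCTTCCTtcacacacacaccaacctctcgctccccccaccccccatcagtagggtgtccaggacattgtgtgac
Dll4 (chr2:119325534-119325783, plus strand): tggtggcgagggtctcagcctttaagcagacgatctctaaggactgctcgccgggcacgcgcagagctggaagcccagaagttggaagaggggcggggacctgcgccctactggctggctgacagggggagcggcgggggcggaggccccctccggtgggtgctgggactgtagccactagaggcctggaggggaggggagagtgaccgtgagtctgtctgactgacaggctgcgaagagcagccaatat
Jag2 (chr12:112929496-112929745, minus strand): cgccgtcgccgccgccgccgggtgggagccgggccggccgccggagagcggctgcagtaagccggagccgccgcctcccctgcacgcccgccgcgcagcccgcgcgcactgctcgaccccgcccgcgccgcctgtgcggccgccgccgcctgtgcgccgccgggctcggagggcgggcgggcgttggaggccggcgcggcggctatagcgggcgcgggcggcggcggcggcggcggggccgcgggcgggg
Notch3 (chr17:32166891-32167140, minus strand): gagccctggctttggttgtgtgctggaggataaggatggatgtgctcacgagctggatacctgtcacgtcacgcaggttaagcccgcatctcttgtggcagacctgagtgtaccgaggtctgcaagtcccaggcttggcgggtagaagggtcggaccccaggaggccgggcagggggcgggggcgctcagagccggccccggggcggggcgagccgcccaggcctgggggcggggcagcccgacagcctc
Of the 10 genes, 8 had a promoter in the RefSeq table, with 9 windows because Dll1 has 2. The target genes Hes1 and Heyl had none, so only receptors and ligands were searched. The Notch4 window held AGGAAG at 3 places, which start 245, 197 and 73 bases before the start site. Of all 32851 promoter windows, 29.5% held this motif at least once, and among the other members it was found in 1 Dll1 window. The related CGGAAG was found in the Notch2 window and in 13.6% of all windows. Neither TGGGAA, the core of the RBPJ motif, nor the longer GTGGGAA that contains it was found in any of the 9 windows, against 21.6% and 5.4% of all windows. These are matches of letters in a short stretch and say nothing of binding. The GC content was 87.2% for Jag2, 65.6% for Dll4, 58.4% for Notch4 and 68.8% for Notch3, with a median of 52.4% over all windows.

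**Figure D1:**
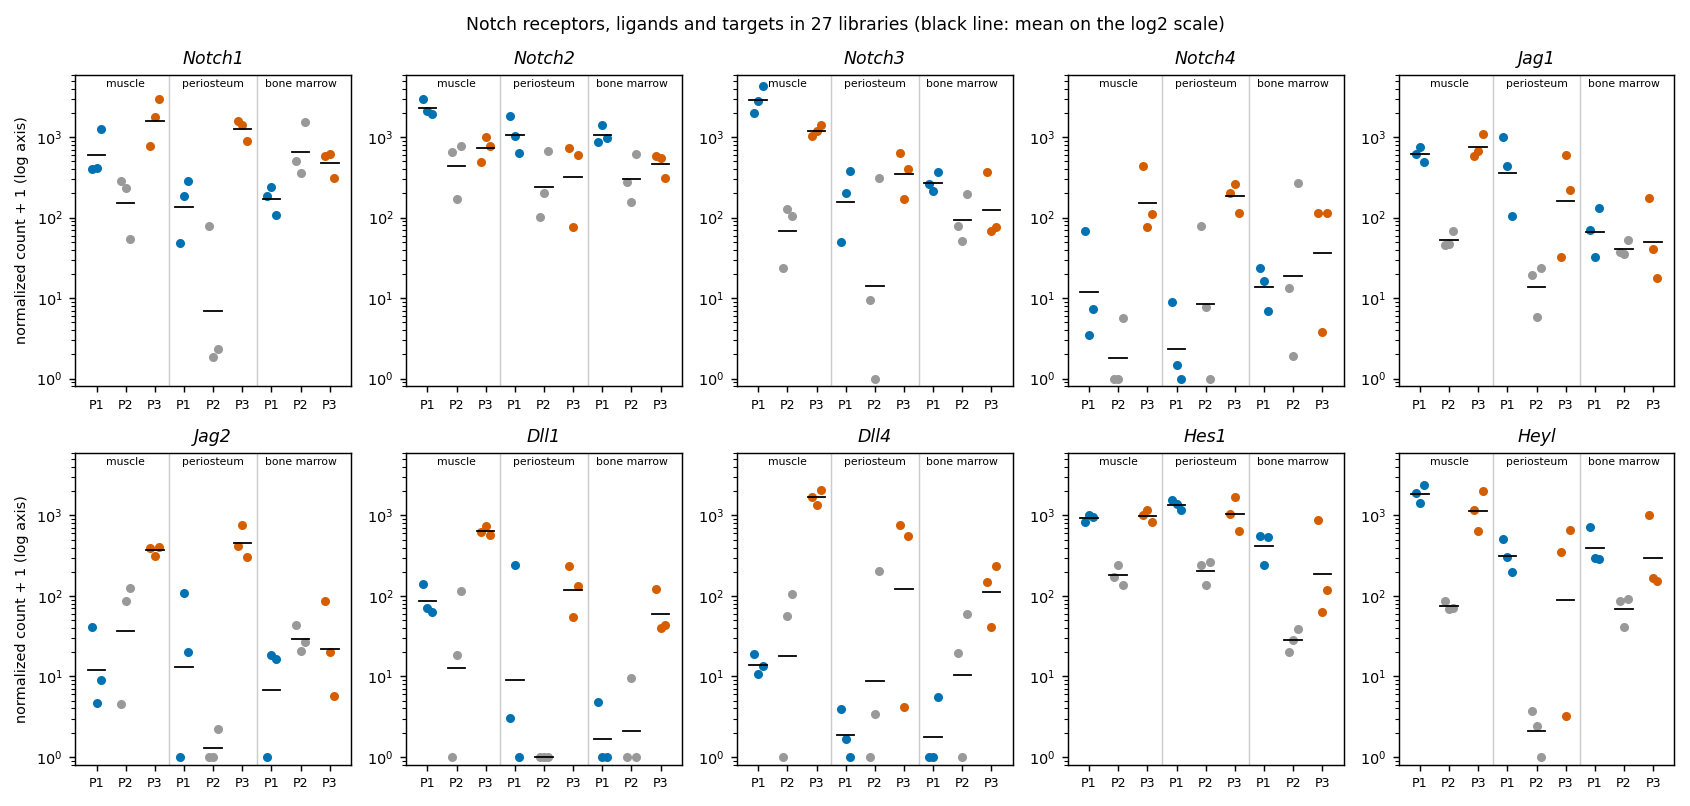
Normalized count + 1 (log axis) of the 10 genes in each of 27 libraries, by tissue and subpopulation (blue P1, grey P2, orange P3). Points are libraries and the black line is the mean on the log2 scale of 3 libraries. Dll4 sat between 1348 and 2060 in muscle P3, and Notch3 between 2001 and 4271 in muscle P1.

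Notch3 was the receptor with the clearest muscle pattern. Its gene lies at chr17:32120820-32166852 on the minus strand (GENCODE M21, GRCm38). Notch3 was at 2001, 2805 and 4271 in the 3 muscle P1 libraries, at 1045, 1182 and 1420 in muscle P3 and at 23.0, 126.8 and 103.7 in muscle P2. All P1 libraries were above all P3 libraries, which were above all P2 libraries. Outside muscle Notch3 stayed below every muscle P1 and P3 library. In periosteum it was at 48.7, 203.7 and 382.3 in P1, at 8.36, 0 and 306.3 in P2 and at 641.2, 171.5 and 396.9 in P3. In bone marrow it was at 261.9, 210.9 and 365.8 in P1, at 78.7, 50.7 and 194.2 in P2, and at 366.9, 67.4 and 75.7 in P3, where replicate 1 stood above the other two. In muscle the limma difference of log2(normalized count + 1) between P1 and P2 was 5.40 ± 1.29 (SE; adjusted p = 0.008), and between P3 and P2 it was 4.14 ± 1.29 (adjusted p = 0.0358). P3 against P1 in muscle gave -1.26 ± 1.29 (adjusted p = 1). The call of P1 against P2 ended without muscle P2 replicate 1 (4.64, adjusted p = 0.0508), and that of P3 against P2 ended without any 1 of the 6 libraries (adjusted p from 0.0501 to 0.161).

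Notch2, which is widely expressed, was also highest in muscle P1. It lies at chr3:98013527-98150361 on the plus strand. Notch2 was at 2976, 2109 and 1914 in muscle P1, at 644.1, 167.8 and 771.5 in muscle P2, and at 485, 1017 and 781.4 in muscle P3. Periosteum P1 had 1809, 1032 and 631.2, periosteum P2 had 102, 198.8 and 676.7, and periosteum P3 had 727.1, 74.9 and 606.7. In bone marrow it was at 862.8, 1427 and 988 in P1, at 275.7, 155.1 and 612.3 in P2, and at 587.8, 542.9 and 308.8 in P3. Every muscle P1 library was above all other libraries of the series, and in muscle and bone marrow no P1 library overlapped P2 or P3. No single pair of groups passed the test for Notch2. The nearest were P1 against P2 in periosteum (2.14 ± 0.79, adjusted p = 0.0572) and in muscle (2.39 ± 0.79, adjusted p = 0.0594).

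Notch1 followed another order, with the highest mean in P3 in muscle and periosteum. In bone marrow P2 had the highest mean through its replicate 3, while the median was higher in P3 (584.6 against 504.4). Notch1 lies at chr2:26457903-26516663 on the minus strand and is the receptor best known from endothelial and lymphoid cells. Muscle P3 had 783.8, 1783 and 2982, periosteum P3 had 1569, 1406 and 907, and bone marrow P3 had 584.6, 615.7 and 307.2. Bone marrow P2 had 504.4, 359.4 and 1547 and muscle P1 had 404.9, 418.9 and 1250, both with a higher mean than bone marrow P3, with which they overlapped. Lower levels were seen in muscle P2 (285.7, 229.4 and 53.9), bone marrow P1 (187.2, 236.5 and 105.6) and periosteum P1 (47.7, 182.7 and 286.6). The lowest group was periosteum P2 with 77.2, 0.863 and 1.31. Bone marrow was the only tissue in which every P2 library was above every P1 library, a difference that was not called (P1 minus P2, -1.96 ± 1.06, adjusted p = 0.154). Periosteum P3 was above periosteum P2 by 7.50 ± 1.06 (adjusted p = 3.12e-05) and periosteum P1 above it by 4.30 ± 1.06 (adjusted p = 0.00589). The periosteum P1 and P2 libraries overlapped. With limma fitted to the periosteum groups alone, neither was called (adjusted p = 0.0635 and 0.218). The call of P3 against P2 in muscle (3.39 ± 1.06, adjusted p = 0.0356) ended without muscle P2 replicate 2 or 3, or P3 replicate 2 or 3, with adjusted p up to 0.168. In bone marrow P3 against P2 gave -0.45 ± 1.06 (adjusted p = 0.819).

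Per kilobase of exon, Notch4 had the lowest mean of the receptors in every group except periosteum P2, where it was at 3.53 normalized counts per kilobase and Notch1 at 1.86. It lies at chr17:34564268-34588503 on the plus strand. Notch4 was at 433.7, 74.9 and 109.6 in muscle P3, at 203.4, 260.7 and 114.6 in periosteum P3 and at 114.5, 2.75 and 113.5 in bone marrow P3. In P1 it was at 67.0, 2.44 and 6.24 in muscle, at 7.84, 0.486 and 0 in periosteum and at 22.7, 15.2 and 5.99 in bone marrow. In P2 it was at 0, 0 and 4.72 in muscle, at 78.5, 6.84 and 0 in periosteum and at 12.5, 0.924 and 265.6 in bone marrow. The muscle and periosteum P3 libraries did not overlap with P1 or P2 of their tissue, while bone marrow P2 replicate 3 was above all bone marrow P3 libraries. Notch4 was the only member called between P3 and P1 within a tissue, in periosteum (6.28 ± 1.72, adjusted p = 0.0355). That call ended without periosteum P1 replicate 2 (adjusted p = 0.0898) or 3 (0.107), or P3 replicate 1 (0.0726) or 2 (0.0877). It also ended with a pseudocount of 0.1 (0.0619), no filter (0.0651), quantile normalization (0.147) or the periosteum groups fitted alone (0.38).

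Dll4, the vascular ligand, had the largest difference of the 10 genes between P3 and P1 in muscle, in bone marrow and as the mean over the tissues, while in periosteum that of Notch4 was larger. It lies at chr2:119325784-119335962 on the plus strand. Dll4 was at 1692, 1348 and 2060 in muscle P3, at 765.2, 3.23 and 552.3 in periosteum P3 and at 148.3, 39.6 and 234.2 in bone marrow P3. It was at 17.8, 9.61 and 12.5 in muscle P1, at 2.90, 0.652 and 0 in periosteum P1 and at 0, 0 and 4.51 in bone marrow P1. In P2 it was at 0, 55.6 and 104.4 in muscle, at 0, 2.43 and 204.3 in periosteum and at 18.5, 0 and 59.4 in bone marrow. In each of the 3 tissues every P3 library was above every P1 library, in periosteum by little, because replicate 2 of P3 was at 3.23 beside the highest P1 value of 2.90. P3 against P1 within a tissue gave 6.91 ± 1.99 in muscle (adjusted p = 0.161), 6.03 ± 1.99 in periosteum (0.0894) and 5.99 ± 1.99 in bone marrow (0.0695), none of them called. P3 against P2 in muscle was called (6.53 ± 1.99, adjusted p = 0.0313), and this ended without muscle P2 replicate 1 or without any of the 3 muscle P3 libraries, with adjusted p up to 0.208.

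Dll1, a ligand known from satellite cell maintenance and from endothelium, lies at chr17:15367354-15376872 on the minus strand. It was at 619, 739.4 and 565.7 in muscle P3, at 236, 53.1 and 133.1 in periosteum P3 and at 120.1, 38.5 and 42.8 in bone marrow P3. It was at 141.8, 70.6 and 63.0 in muscle P1, at 2.08, 243.9 and 0 in periosteum P1 and at 3.85, 0 and 0 in bone marrow P1. In P2 it was at 0, 17.2 and 114.2 in muscle and at 0, 8.49 and 0 in bone marrow, and it was listed at 0 in all 3 periosteum P2 libraries. Muscle P3 did not overlap with any other group. P3 was above P2 without overlap in all 3 tissues, and each of these was called (muscle 5.64 ± 1.60, adjusted p = 0.0209; bone marrow 4.81 ± 1.60, adjusted p = 0.035; periosteum, against the group at 0, adjusted p = 0.00465). Bone marrow P3 against P1 gave 5.13 ± 1.60 (adjusted p = 0.0525). The periosteum call held without each library in turn but ended with the periosteum groups fitted alone (limma, adjusted p = 0.172). The bone marrow call held without P2 replicate 2 only. The muscle call ended without P2 replicate 1 (3.80, adjusted p = 0.164) or without any of the 3 P3 libraries (adjusted p from 0.0565 to 0.0685).

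Jag2 was high in P3 of muscle and periosteum and low in P3 of bone marrow. It lies at chr12:112907819-112929776 on the minus strand. Muscle P3 had 398, 314.5 and 406.2, periosteum P3 had 416.6, 755.9 and 306.2, and bone marrow P3 had 86.7, 19.2 and 4.72. P1 had 39.6, 3.64 and 7.94 in muscle, 0, 108.3 and 19.3 in periosteum and 0, 17.7 and 15.4 in bone marrow. In P2 it was at 3.59, 85.2 and 126.2 in muscle, at 0, 0 and 1.21 in periosteum and at 42.3, 19.7 and 25.8 in bone marrow. The P3 libraries of muscle and periosteum overlapped each other and no other group. Periosteum P3 against P2 gave 8.46 ± 1.51 (adjusted p = 0.000438), and periosteum P3 against P1 gave 5.14 ± 1.51 (adjusted p = 0.0525). The former was not called with the periosteum groups fitted alone (limma, adjusted p = 0.0702).

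Jag1, the ligand most often linked to mesenchymal and smooth muscle cells, was high in both P1 and P3. It lies at chr2:137081456-137116644 on the minus strand. Jag1 was at 611, 763.6 and 493.3 in muscle P1, at 576.2, 670.3 and 1090 in muscle P3, at 991.4, 435.1 and 105.1 in periosteum P1 and at 31.2, 595.2 and 222.6 in periosteum P3. Bone marrow had little in any subpopulation, with 70.3, 31.6 and 129 in P1, 36.9, 34.4 and 51.6 in P2 and 174.6, 39.8 and 16.9 in P3. P2 was low in muscle (44.7, 45.5 and 66.4) and in periosteum (18.5, 4.84 and 22.8). P1 was above P2 by 3.55 ± 1.01 in muscle (adjusted p = 0.0264) and by 4.68 ± 1.01 in periosteum (adjusted p = 0.00206), and P3 above P2 by 3.84 ± 1.01 (adjusted p = 0.0125) and 3.54 ± 1.01 (adjusted p = 0.0183). The muscle call of P1 against P2 held only without muscle P2 replicate 3 among the 6 libraries left out in turn. Both periosteum calls ended with the periosteum groups fitted alone (limma, adjusted p = 0.141 for P1 against P2 and 0.273 for P3 against P2).

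Hes1, a repressor that is an early target of Notch, separated P2 from the other subpopulations in every tissue. It lies at chr16:30064384-30067796 on the plus strand. In P1 it was at 833.7, 1026 and 955 in muscle, at 1557, 1379 and 1181 in periosteum and at 556, 243.7 and 531.6 in bone marrow. In P3 it was at 1024, 1162 and 827.2 in muscle, at 1054, 1679 and 635.8 in periosteum and at 879.9, 63.0 and 118.3 in bone marrow. In P2 it was at 170.9, 244.3 and 137.1 in muscle, at 240.3, 137 and 260.1 in periosteum and at 19.2, 27.5 and 37.4 in bone marrow. No P2 library overlapped with P1 or P3 of its tissue, and Hes1 was the only member for which all 6 of these comparisons were called, with differences of 2.34 (periosteum P3 against P2, adjusted p = 0.0212) to 3.89 (bone marrow P1 against P2, adjusted p = 0.000147). Of these 6 calls, 4 depended on single libraries. In muscle the call of P1 against P2 held only without P2 replicate 2 (adjusted p otherwise up to 0.0975), and that of P3 against P2 ended without P2 replicate 1 or 3 or P3 replicate 1 or 2 (up to 0.072). In periosteum the call of P3 against P2 ended without P2 replicate 2 (0.068) or P3 replicate 2 (0.0794). It also ended with the periosteum groups fitted alone (0.0534) or quantile normalization (0.0604). Bone marrow P3 rested on replicate 1, without which the difference from P2 was 1.64 (adjusted p = 0.0637).

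Heyl, a Hey-family repressor known from mural cells, lies at chr4:123233556-123249875 on the plus strand. It was at 1889, 1431 and 2390 in muscle P1, at 1154, 648.9 and 1986 in muscle P3 and at 85.9, 67.0 and 68.9 in muscle P2. In periosteum it was at 510.6, 304.2 and 199.4 in P1, at 2.75, 1.41 and 0 in P2 and at 350.3, 2.19 and 650.8 in P3. In bone marrow it was at 718.1, 296.4 and 285.9 in P1, at 85.9, 40.7 and 91.3 in P2 and at 1013, 168.2 and 153.7 in P3. P1 was above P2 without overlap in all 3 tissues, and in periosteum P3 replicate 2 lay among the P2 libraries. P1 against P2 gave 7.24 ± 1.25 in periosteum (adjusted p = 0.000215), 4.65 ± 1.25 in muscle (adjusted p = 0.0184) and 2.51 ± 1.25 in bone marrow (adjusted p = 0.122). P3 against P2 gave 5.43 ± 1.25 in periosteum (adjusted p = 0.00429) and 3.94 ± 1.25 in muscle (adjusted p = 0.0391). The muscle P3 call ended without any 1 of the 6 libraries. Both periosteum calls ended with the periosteum groups fitted alone (limma, adjusted p = 0.132 for P1 against P2 and 0.273 for P3 against P2).

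Set against length, the mix of receptors and of ligands differed between the groups. Values were divided by the kilobases of exon of each gene, which run from 8.06 for Notch4 to 14.2 for Notch1 among receptors and from 3.85 for Dll4 to 6.96 for Jag2 among ligands. Per kilobase, Notch3 made up 44.2% to 66.5% of the receptor sum in muscle P1, and Notch2 62.3% to 74.8% in bone marrow P1 and 46.5% to 94.2% in periosteum P1. Notch1 made up 48.9% to 54.9% in bone marrow P2. Among ligands, Jag1 made up 70.5% to 86.9% in muscle P1, 68.1% to 93.0% in bone marrow P1 and 50.4% to 99.3% in periosteum P1. Dll4 made up 51.1% to 59.2% of the ligand sum in muscle P3 and at most 3.1% in muscle P1. In periosteum P3 its share was 55.8% in the median library and 0.4% in the lowest. The ligand sum was 685.4 to 914.2 normalized counts per kilobase in muscle P3 and at most 319.8 in every other group, while the receptor sum was highest in muscle P1 (560.2 to 794.2). No test was run on these shares.

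**Figure D2:**
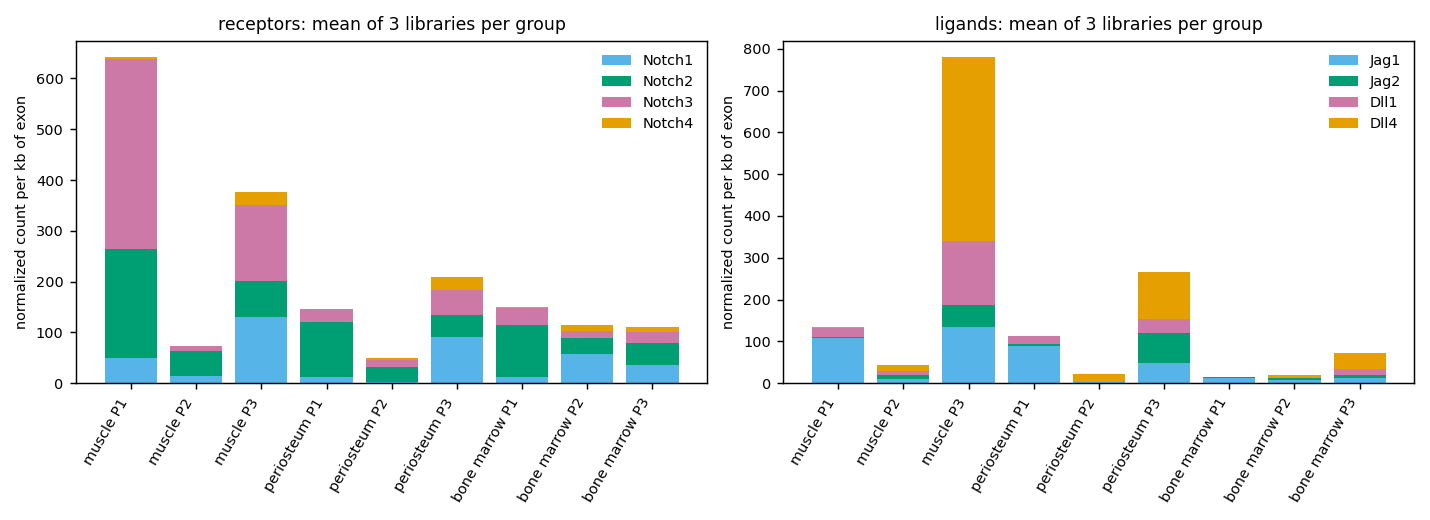
Stacked bars of the mean normalized count per kilobase of exon (3 libraries per group) of the 4 receptors and the 4 ligands in the 9 groups. Notch3 is the largest receptor segment in muscle P1, and Dll4 the largest ligand segment in muscle P3, where the ligand sum was 685.4 to 914.2 in single libraries.

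Between P1 and P2 within a tissue, calls were made at an adjusted p below 0.05 and a log2 difference above 1.5 in size, the thresholds of the study. In muscle 4 of the 10 genes were called (Notch3, Jag1, Hes1 and Heyl), all higher in P1, where 8.21% of all entries tested were called. In periosteum 4 were called (Notch1, Jag1, Hes1 and Heyl), again all higher in P1, with a background of 19.1%. In bone marrow Hes1 alone was called, higher in P1, against 34% of all entries, so that the share of these genes lay below the background there. Without muscle P1 replicate 1 or 3 or P2 replicate 1, only 1 of the 4 muscle calls remained, and without the other 3 libraries 2 remained. The 4 periosteum calls held without each library in turn, but 3 of them (Notch1, Jag1 and Heyl) were lost when the 3 periosteum groups were fitted alone.

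Between P3 and P1 within a tissue little was called. Dll4 libraries were higher in P3 without overlap in all 3 tissues, those of Notch1, Notch4, Jag2 and Dll1 in 2, and those of Jag1, Hes1 and Heyl in none. Notch2 was lower without overlap in 2 tissues and Notch3 in 1. The share of all entries without overlap was taken for muscle only, so these counts of tissues are a description without a background. In muscle none of the 10 passed limma's adjusted threshold, and only 0.466% of all entries were called. Libraries did not overlap for 6 genes there: Notch4, Jag2, Dll1 and Dll4 were higher and Notch2 and Notch3 lower in P3. Of all entries tested, 27.2% did not overlap there, 14.4% being higher and 12.8% lower in P3. In periosteum Notch4 was the only 1 called, with a background of 4.18%. In bone marrow none was called, with a background of 6.6%.

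Between P3 and P2 the calls were most numerous. In muscle 8 of 10 were called and higher in P3 (all but Notch2 and Jag2), against 11.2% of all entries, and in periosteum 7 of 10 (Notch1, Notch3, Jag1, Jag2, Dll1, Hes1 and Heyl), against 17.1%. In bone marrow Dll1 and Hes1 were called, which at 2 of 10 equals the background of 20%. Of the 8 muscle calls, 4 remained without muscle P2 replicate 2 or 3 and 2 remained without P2 replicate 1 or without any of the P3 libraries. With a pseudocount of 0.1, 3 remained (Notch4, Jag1 and Hes1), and without the filter 4 (these and Dll1). Of the 7 periosteum calls, 4 remained without P2 replicate 2, 5 without P3 replicate 2 and 6 without P3 replicate 1, and none when the 3 periosteum groups were fitted alone. In bone marrow neither of the 2 calls remained without P3 replicate 1, and 1 remained without P3 replicate 2 or 3 or P2 replicate 1 or 3.

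The mean over the 3 tissues was a comparison added after the values had been seen. For each pair of subpopulations, more of the 10 genes were called in it than within any single tissue. More libraries enter the mean, so its SE is smaller (for Dll4 between P3 and P1, 1.15 against 1.99 within a tissue). Leaving out 1 library also weighs less there, and fitting the groups alone was not among its settings. Between P3 and P1, 5 of the 10 genes were higher in P3 and 1 lower, against 6.55% of all entries called. Dll4 was higher by 6.31 ± 1.15 (adjusted p = 0.000621), Jag2 by 3.93 ± 0.87 (adjusted p = 0.00423), Dll1 by 3.91 ± 0.93 (adjusted p = 0.00731) and Notch4 by 3.79 ± 0.99 (adjusted p = 0.0155), and these 4 calls held under each of the 25 other settings run. Of the 4 ligands, 3 were thus higher in the CD105+ cells, and Jag1 was not called (-0.42 ± 0.58, adjusted p = 0.779). Notch1 was higher by 2.05 ± 0.61 (adjusted p = 0.0349) and Notch2 lower (-1.52 ± 0.45, adjusted p = 0.0354). The last 2 were the least firm. The Notch1 call ended without bone marrow P1 replicate 1 or 3, bone marrow P3 replicate 1 or 2, muscle P1 replicate 1 or 2, muscle P3 replicate 2 or 3, or replicate 1 of periosteum P1 or P3 (adjusted p from 0.0546 to 0.0812), and also with a pseudocount of 0.1 (0.0643) or no filter (0.0532). The Notch2 call ended without replicate 2 or 3 of bone marrow P1 or P3, any muscle P1 library, muscle P3 replicate 1 or 3, periosteum P1 replicate 1 or 2, or periosteum P3 replicate 2 (adjusted p from 0.0506 to 0.0803). It also ended with equal library totals, quantile normalization, no filter or no trend, with an adjusted p of up to 0.158.

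Between P1 and P2 over the tissues, Heyl (4.80 ± 0.72, adjusted p = 1.9e-05), Notch3 (3.47 ± 0.75, adjusted p = 0.000978), Hes1 (3 ± 0.40, adjusted p = 3.39e-06), Jag1 (2.98 ± 0.58, adjusted p = 0.00042) and Notch2 (2.12 ± 0.45, adjusted p = 0.000963) were higher in P1, 5 of 10 against 28.8% of all entries. Between P3 and P2, 9 of 10 were higher in P3, against 19.4% of all entries, and Notch2 was the exception (0.60 ± 0.45, adjusted p = 0.351). The largest was Dll1 (5.78 ± 0.93, adjusted p = 7.28e-05), for which 1 of the 3 tissues had P2 at 0. Next came Dll4 (4.57 ± 1.15, adjusted p = 0.00538), Notch4 (3.93 ± 0.99, adjusted p = 0.0056), Heyl (3.83 ± 0.72, adjusted p = 0.000421) and Jag2 (3.79 ± 0.87, adjusted p = 0.00269). These 14 calls held under each of the 25 other settings. The median difference of the 10 genes was 2 for P1 against P2, 0.82 for P3 against P1 and 3.63 for P3 against P2, beside -0.15, 0.03 and -0.10 over all entries. The 3 comparisons share groups, so their values are not independent of each other.

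**Figure D3:**
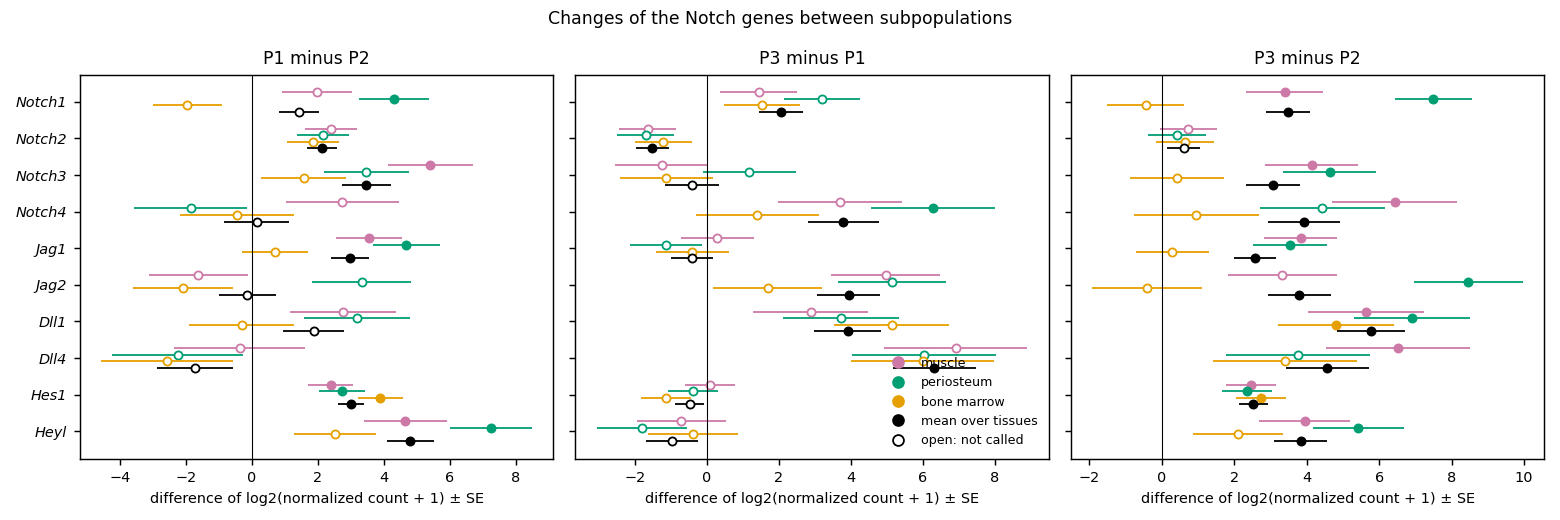
Difference of log2(normalized count + 1) ± SE between subpopulations for the 10 genes, in muscle (pink), periosteum (green), bone marrow (yellow) and as the mean over the tissues (black). Filled points were called; Dll4 in P3 against P1 lies between 5.99 and 6.91 in the 3 tissues and is filled only for the mean (6.31), and Dll1 in periosteum P2 was listed at 0.

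Differences between tissues were fewer. In P1 cells, Jag1 (3.19 ± 1.01, adjusted p = 0.0492) and Dll1 (5.68 ± 1.60, adjusted p = 0.0244) were higher in muscle than in bone marrow, with a background of 8.34%. Neither call remained without muscle P1 replicate 1, 2 or 3 or without bone marrow P1 replicate 2 or 3, and 1 remained without bone marrow P1 replicate 1. The Jag1 call also ended with the replicate block (adjusted p = 0.0645), a pseudocount of 0.1 (0.0642) or no filter (0.0652), and the Dll1 call with the P1 groups fitted alone (0.117). No gene was called in P1 between muscle and periosteum (background 4.9%) or between periosteum and bone marrow (background 4.87%). Notch3 was nearest between muscle and periosteum (4.2 ± 1.29, adjusted p = 0.0605).

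In P2 cells, Notch1 (4.46 ± 1.06, adjusted p = 0.00266), Jag2 (4.83 ± 1.51, adjusted p = 0.0185) and Heyl (5.16 ± 1.25, adjusted p = 0.00322) were higher in muscle than in periosteum. These 3 of 10 genes are close to the background of 28%. The same 3 were lower in periosteum than in bone marrow (Notch1 -6.56 ± 1.06, adjusted p = 7.05e-05), where Hes1 was higher in periosteum (2.87 ± 0.69, adjusted p = 0.00386) and the background was 20%. Both comparisons use the same periosteum libraries. Hes1 was also higher in muscle than in bone marrow (2.68 ± 0.69, adjusted p = 0.00353), the only 1 called there against a background of 40.1%. The erythroid marker genes had shares of 45.6% to 48.8% in bone marrow P2, 24.7% to 39.7% in periosteum P2 and 0.938% to 1.60% in muscle P2. Periosteum P2 thus lay between the other groups in these shares, while Notch1, Jag2 and Heyl were lowest in it. The 7 chondrocyte marker genes summed to 338055 to 799085 in periosteum P2, 459.3 to 1245 in muscle P2 and 129.1 to 826.4 in bone marrow P2. All 7 were called higher in periosteum P2 than in muscle P2 and than in bone marrow P2. The part of these cells in the differences was not tested. Jag2 was the less firm of the Notch genes called here. Its call between muscle and periosteum ended without muscle P2 replicate 2 or 3 or periosteum P2 replicate 2. That between periosteum and bone marrow held only without periosteum P2 replicate 3. The latter also ended with a pseudocount of 5, equal library totals, quantile normalization or the P2 groups fitted alone (adjusted p from 0.0679 to 0.554). The Notch1 call between muscle and periosteum, where the libraries overlapped, ended with the P2 groups fitted alone as well (limma, adjusted p = 0.0774).

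In P3 cells, Jag1 (3.90 ± 1.01, adjusted p = 0.0118) and Hes1 (2.40 ± 0.69, adjusted p = 0.0227) were higher in muscle than in bone marrow, with a background of 10.4%. Both calls remained without bone marrow P3 replicate 1, 1 of them without muscle P3 replicate 1 or 2, and neither without bone marrow P3 replicate 2 or 3 or muscle P3 replicate 3. Hes1 was higher in periosteum than in bone marrow (2.46 ± 0.69, adjusted p = 0.0289, background 6.94%), which ended without bone marrow P3 replicate 2 or 3 or periosteum P3 replicate 1 or 2. Both Hes1 calls also ended with equal library totals (0.0517 and 0.0503) or the P3 groups fitted alone (0.107 and 0.129), as did that of Jag1 in the latter setting (0.0555). Between muscle and periosteum none was called (background 3.5%), and Dll4 differed by 3.79 ± 1.99 (adjusted p = 0.31).

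Whether P3 departed from P1 to a different extent in different tissues was tested directly. None of the 10 genes was called by limma for muscle against periosteum, muscle against bone marrow or periosteum against bone marrow, where 0.249%, 1.99% and 0.537% of all entries were. For none of the 10 was the unadjusted p below 0.05, so that no difference in this respect was detectable with 3 libraries per group.

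Marker genes of several other cell types moved with the Notch genes, first among them those of endothelial cells. The 14 endothelial marker genes summed to 55353 to 81273 in muscle P3, 30643 to 57285 in periosteum P3 and 4512 to 14346 in bone marrow P3. In P1 they summed to 7083 to 17065 in muscle, 747.2 to 2050 in periosteum and 342.9 to 645.6 in bone marrow, with Erg at 0 in all periosteum P1 and bone marrow P1 libraries. In P2 the sums were 3418 to 11981 in muscle, 646.7 to 2287 in periosteum (Erg, Cldn5 and Sox18 at 0) and 3007 to 3363 in bone marrow (Erg at 0). Over the tissues, 12 of the 14 were higher in P3 than in P1, against 6.55% of all entries called, as were Dll4, Jag2, Dll1 and Notch4. The part of endothelial cells in the P3 values was not tested. Pecam1, which encodes CD31, was at 10537, 6067 and 8460 in muscle P3 and at 495.9, 1042 and 940.8 in muscle P1. Periosteum P3 replicate 2 broke the pattern for Dll4: its endothelial sum was 37666, between those of replicates 1 (57285) and 3 (30643), and its Pecam1 was 4691, but Dll4 was at 3.23. This library had the fewest entries above 0 (12396). Among the periosteum P3 libraries, Heyl (2.19), Notch2 (74.9), Notch3 (171.5) and Dll1 (53.1) were also lowest in it, while Notch4, Jag1, Jag2 and Hes1 were highest in it.

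The 12 mural marker genes summed to 56624 to 121309 in muscle P1, where Notch3 and Heyl were highest, to 31975 to 41328 in muscle P3 and to 2702 to 5255 in muscle P2. Of the 12, 7 were higher in muscle P1 than in muscle P2 and none was lower, where 8.21% of all entries were called. In the same comparison 7 of 8 osteoblast, 4 of 7 chondrocyte and 4 of 7 Schwann cell marker genes tested were higher and none was lower. All 8 myofibre and 8 of 9 erythroid marker genes tested were lower there. Outside muscle the highest sums were 11951 to 16226 in periosteum P3 and 8455 to 13402 in periosteum P1, and bone marrow had 4701 to 5339 in P1 (Mcam and Myh11 at 0), 528.7 to 969.1 in P2 (Higd1b at 0) and 1159 to 7765 in P3. Periosteum P2 had 3510 to 8662, with Higd1b at 0. The part of mural cells in the Notch3 and Heyl values was not tested. Muscle P1 also held satellite cell transcripts, with Pax7 at 427.8, 242 and 227.9 and Myf5 at 551.1, 560.2 and 666.9, while Pax7 was at 0 in all muscle P2 libraries and at most 11.5 in muscle P3. Of the 9 satellite marker genes, 4 were higher in muscle P1 than in muscle P2 and none was lower. Their sum went the other way, with 11714 to 12028 in muscle P1, 57651 to 136158 in muscle P2 and 1498 to 2176 in muscle P3. Des, which myofibres also express, made up most of the muscle P2 sum, at 55572, 69203 and 134168. Satellite cells are known to express Notch3 and Heyl as well, and their part was not tested either.

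Skeletal and erythroid marker genes moved with the same comparisons. Over the tissues, all 8 osteoblast and 7 of 8 limb mesenchyme marker genes were higher in P1 than in P2, as were 8 of 12 mural ones, while all 9 erythroid and all 8 myofibre marker genes tested were lower. The 8 osteoblast genes summed to 3031289 to 5131227 in bone marrow P1, 742731 to 1451994 in periosteum P1 and 83703 to 148428 in muscle P1, against 2455 to 7728, 8648 to 15656 and 17356 to 28168 in P2, with Sp7 at 0 in muscle P2. Between P3 and P1 over the tissues, all 9 erythroid marker genes were higher in P3, and 7 of 8 osteoblast, 3 of 7 chondrocyte and 3 of 9 satellite marker genes were lower. The erythroid sum was 24866 to 43502 in muscle P3 against 2856 to 12013 in muscle P1, 181966 to 217499 against 15308 to 47662 in periosteum, and 282585 to 492466 against 120786 to 496961 in bone marrow, where the groups overlapped. Between P3 and P2 over the tissues, 11 of 14 endothelial, 10 of 12 mural, 6 of 8 osteoblast and 6 of 8 limb mesenchyme marker genes were higher in P3, and 7 of 9 erythroid and all 8 myofibre ones lower. The shares of all entries called over the tissues were 28.8% for P1 against P2, 6.55% for P3 against P1 and 19.4% for P3 against P2. The part of these cells in the Notch values was not tested.

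**Figure D4:**
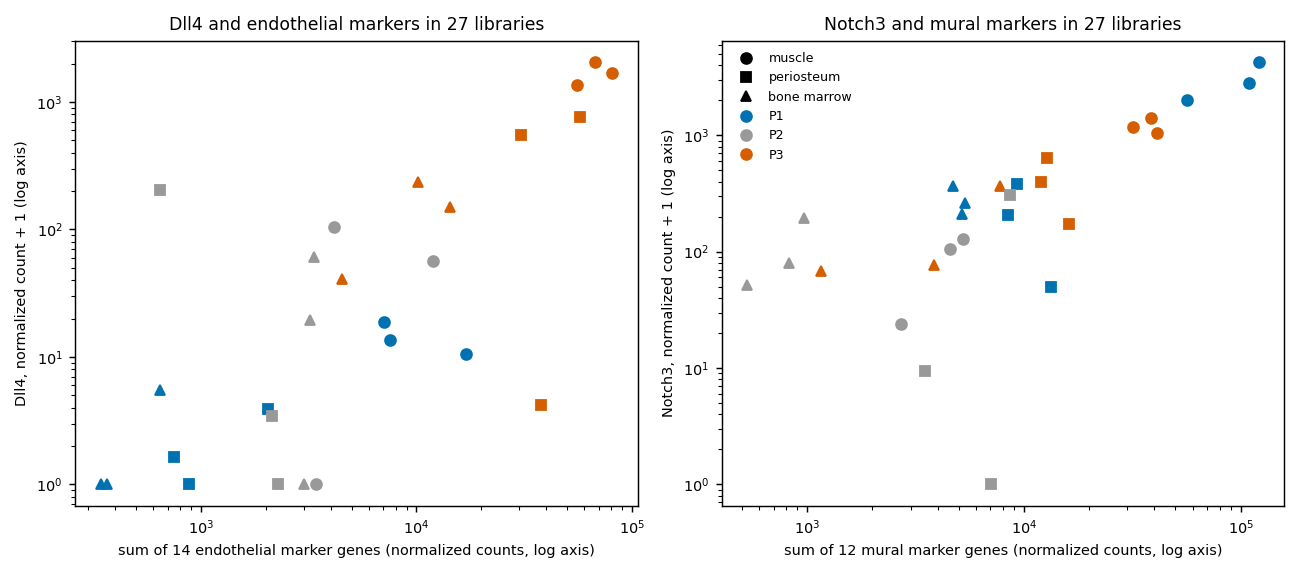
Left, Dll4 (normalized count + 1) against the sum of 14 endothelial marker genes, and right, Notch3 against the sum of 12 mural marker genes, in 27 libraries on log axes (circles muscle, squares periosteum, triangles bone marrow; blue P1, grey P2, orange P3). The muscle P3 libraries lie at the top of the left panel (Dll4 1348 to 2060), periosteum P3 replicate 2 lies low at 3.23, and the muscle P1 libraries lie at the top of the right panel.

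The genes whose levels ran most like each member over the 27 libraries are a description of shared pattern, since the libraries share tissue, gate and cell mix. With Dll4 these were Tie1 (Pearson's r = 0.814), Podxl (0.812) and Bcl6b (0.807), and with Dll1 they were Sox18 (0.906), 8430408G22Rik (0.873) and Ldb2 (0.867). Jag2 ran most like N4bp3 (0.834), Egfl7 (0.81) and Cables2 (0.794), and Notch4 most like Arhgef15 (0.771), Ssu2 (0.766) and Nova2 (0.755). Tie1, Sox18 and Egfl7 are on the endothelial marker list. Notch3 ran most like Mylk (0.88), which encodes the myosin light chain kinase of smooth muscle, Coq10b (0.878) and Rasl11a (0.861), and Jag1 most like Tril (0.903), Ptx4 (0.872) and Map1b (0.839). For Hes1 they were Olfml2b (0.942), Tcf4 (0.917) and Sulf1 (0.913), and for Heyl they included Ttc28 (0.882) and Tbc1d23 (0.877). For Notch1 they were Mospd2 (0.869), Man2a1 (0.861) and Cpt1a (0.848), and for Notch2 Lonp2 (0.861), Naglu (0.856) and Erbb2 (0.834).

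The rest of the pathway was taken from a list of 56 other genes, of which 55 were in the table and 54 were tested. It holds further ligands, the Fringe glycosyltransferases that tune which ligand a receptor answers, ligand endocytosis factors, the proteases, the RBPJ complex, other targets and inhibitors. Over the tissues, 8 were higher and 3 lower in P1 than in P2, 3 higher and 3 lower in P3 than in P1, and 7 higher and 3 lower in P3 than in P2. Beside the shares of all entries called (28.8%, 6.55% and 19.4%), the 11 and 10 of 54 called against P2 lay below and the 6 of 54 called between P3 and P1 lay above.

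Of the other ligands, Dll3, a Delta-like protein known from somite formation that does not activate the receptor from a neighbouring cell, was lower in P3 than in P2 over the tissues (-1.64 ± 0.57, adjusted p = 0.0366) and in bone marrow (-3.69 ± 0.98, adjusted p = 0.0103), where it was at 64.8, 40.4 and 130.2 in P2, at 15.6, 20.4 and 11.8 in P1 and at 0.352, 15.2 and 6.61 in P3. It was not called between P3 and P1 over the tissues (-0.37 ± 0.57, adjusted p = 0.802).

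Of the Fringe genes, Mfng and Lfng were higher in P3 than in P1 over the tissues. Mfng was at 354.4, 243.4 and 320.4 in muscle P3 and at 47.0, 102.9 and 69 in muscle P1, at 473.5, 235.3 and 254.4 in periosteum P3 and at 2.75, 4.01 and 1.82 in periosteum P1. Bone marrow had 132.9, 40.2 and 75.1 in P3 and 2.71, 8.53 and 5.43 in P1. P3 and P1 did not overlap in any tissue, and over the tissues Mfng was higher in P3 by 4.02 ± 0.49 (adjusted p = 3.7e-06). Lfng was higher by 2.63 ± 0.73 (adjusted p = 0.0224), with its highest values in bone marrow P3 (385.3, 334.7 and 323.8).

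Among other targets, Nrarp, a feedback inhibitor that Notch induces, was higher in P3 than in P1 over the tissues by 4.06 ± 0.74 (adjusted p = 0.000659), although in muscle P1 (100.3, 241.6 and 306.8) overlapped P3 (124.8, 143.4 and 147.2). It was at 93.7, 252.1 and 77.1 in periosteum P3 and at 0, 0.743 and 0 in periosteum P1, and in bone marrow it was at 102, 66.0 and 37.5 in P3 and listed at 0 in all P1 libraries. Hey1 resembled Hes1. Over the tissues it was higher than in P2 by 5.47 ± 0.74 in P1 (adjusted p = 4.56e-06) and by 4.91 ± 0.74 in P3 (adjusted p = 3.63e-05), and it was listed at 0 in all periosteum P2 libraries. In bone marrow P3 Hey1 was low, at 15.9, 6.83 and 3.35, against 736.9, 1094 and 820.1 in muscle P3. Hey2, a target known from arteries and mural cells, was at 109.8, 189 and 194.5 in muscle P1, at 63.1, 81 and 67.7 in muscle P3 and at 0 in all periosteum P1 libraries.

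Among modulators, Numbl, which is related to the Notch inhibitor Numb, was lower in P3 than in P1 over the tissues (-1.61 ± 0.44, adjusted p = 0.0206), as were Dtx4 (-3.20 ± 0.81, adjusted p = 0.0122) and Neurl1a (-2.89 ± 0.84, adjusted p = 0.031). Within single tissues, Numbl and Dtx4 were not called between P3 and P1, and Neurl1a was called in bone marrow only. Neurl1a, a ubiquitin ligase for Notch ligands, was at 1307, 584.2 and 808.9 in muscle P2, where myofibre marker genes were 9.68% to 10.9% of the total. Their part in its level was not tested. Mib2, which has the same kind of role, was listed at 0 in all 3 periosteum P2 libraries. Psen2, which encodes a catalytic subunit of γ-secretase, was higher in P3 than in P2 over the tissues (2.56 ± 0.54, adjusted p = 0.00134).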

How the data were processed

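Per the authors, SMART-Seq v4 and Nextera XT libraries were read on a HiSeq, Trim Galore and STAR served for trimming and alignment, and DESeq2 for the counts. The deposited table holds normalized counts, a signal on a linear scale. The genome build, annotation and counting tool are not given in the sources used here. Whole reads could not be recovered (20.7% to 94.5% of low values per library were within 0.1 of a whole multiple), so count tests were not used and counting error is unknown. No value of 20 housekeeping genes was 0. A transgene entry was left out.

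limma 3.58.1 in R 4.3.3 was fitted (lmFit, eBayes with trend) to log2(normalized count + 1) of 18442 entries with 9 group means, with Benjamini-Hochberg adjustment in each comparison. Each entry had 1 spread shared by all 9 groups, so an SE does not measure the spread within 1 tissue. Replicates of a group correlated at r of 0.631 to 0.827 in periosteum, 0.862 to 0.955 in muscle and 0.767 to 0.935 in bone marrow. On simulated data for muscle P3 against P1 (18442 genes), 44 of 200 genes given a log2 change of 3 were called, all in the right direction. The members and lists were chosen with earlier results of these data known. Genes named were the members, the 3 entries most correlated with each, called pathway genes and listed markers. Some genes that this rule names are not reported here. The mean over the 3 tissues was added after seeing the data. Python 3.11.15, numpy 2.4.6, pandas 2.3.3 and matplotlib 3.10.9 were used for the rest. Gene positions and exon lengths are from GENCODE M21 (GRCm38), matched by identifier.

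Other settings tried were a pseudocount of 0.1 or 5, all entries unfiltered, equal totals, quantile normalization, replicate block, no trend, the groups alone and each library left out.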

Additional observations from a re-analysis of the deposited data

How the results depend on the processing

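No call of the 10 Notch genes changed direction in any alternative. Of the 40 calls among 180 single comparisons, and of the 20 calls over all tissues, 25 in all kept significance throughout. Most of these 25 were calls over all tissues, for which the groups fitted alone were not among the settings. No call within muscle was kept throughout. Within periosteum and bone marrow only that of Hes1 between P1 and P2 was. Between tissues only P2 calls were kept throughout. These were Hes1, Heyl and Notch1 between periosteum and bone marrow, Hes1 between muscle and bone marrow, and Heyl between muscle and periosteum. Within muscle the 12 calls became 6 with a pseudocount of 0.1, and 3 to 10 with 1 library left out. Within periosteum 12 became 1 when its groups were fitted alone. Within bone marrow 3 became 5 with equal totals, 9 with quantile normalization and 9 with the groups alone. For tissues within P1, 2 calls became 1 with a pseudocount of 0.1, 4 with 5, 1 without the filter, 4 with equal totals and 6 with the groups alone, and 0 to 3 with 1 library left out. Within P3, 3 became 6 with a pseudocount of 5, 1 with equal totals, 5 with quantile normalization, and 0 to 4 with 1 library left out. The cause was not tested. Over all tissues 18 to 21 were called. Equal totals moved the median of all genes by up to 1.01 (bone marrow P3 against P2). Same-numbered libraries did not deviate together (mean r 0.000242), and with the replicate block 62 calls were made against 60, of which 59 were shared.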
